A study of Gallus gallus with 13 samples.

Results

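Timing transition regions of chromosome 1 were the stretches of DT40 DNA that replicated in the middle of S phase between an earlier and a later neighbour. The chromosome was cut into windows of 20 kb, and each window was given to the S-phase fraction, from S1 (earliest) to S4 (latest), with the highest scaled signal in wild-type (Wt) cells. A window was counted as a transition window when it lay in an unbroken run led by S2 or S3 with an earlier-led run directly on one side and a later-led run on the other. This held for 2162 of the 9787 windows that had a leading fraction, or 22.1%, which added up to 43.24 Mb. They were 62.2% of the 3477 windows led by S2 or S3. The other such windows lay in local peaks (374 windows, both neighbouring runs later) and in local valleys (931 windows, both neighbouring runs earlier), apart from windows at the end of the profile or beside a gap.

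DT40 is a chicken B cell line derived from a bursal lymphoma. Per the labels, the Wt line was compared with 1 homozygous clone of the genotype 2x (βA-globin+ β-actin). It carried a module of cis-regulatory elements on both alleles within chr1:71981290-73532377 (galGal5), which the labels describe as mid to late replicating. The design text speaks of 1 module and the genotype of 2x, and what exactly was inserted was not settled here. Growing cells of both lines were labelled with BrdU, a thymidine analog, for 1 h, sorted into the 4 fractions by flow cytometry, and the labelled nascent strands were sequenced (Repli-seq). There was 1 library per fraction and line, 8 in all, so that no difference below has a replicate error, no test was possible, and the difference between the lines cannot be told apart from the difference between 1 culture or clone and another. With no counts in the profiles the read depth is unknown, and of the 13 samples 5 were not analysed here (the asynchronous Wt library and 4 Hi-C libraries).

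Replication starts at origins, and a region where many origins fire early forms an early domain. Between an early and a late domain lies a timing transition region, which is replicated progressively later with distance from the early domain, either by forks that travel a long way from it or by origins that fire one after another. Such regions often coincide with borders between compartments of active and inactive chromatin.

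The leading fractions in Wt were used to choose the windows, so their Wt values describe the choice. The S2-led transition windows (1158) had a median deposited score of 0.150 (S1), 1.29 (S2), 0.380 (S3) and -0.778 (S4), in SD units of each library. The S3-led transition windows (1004) had a median of -0.546 (S1), 0.241 (S2), 1.29 (S3) and 0.339 (S4). Each class was thus highest in its own fraction, intermediate in the fractions just before and after it, and lowest in the remaining one. Expressed as a share of the signal summed over the 4 scaled fractions, the leading fraction held a median of 42.7% in S2-led and 41.6% in S3-led windows.

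The clone, which played no part in the choice, gave close to the same shares. In the clone the S2-led windows had medians of 22.1% (S1), 41.3% (S2), 27.2% (S3) and 7.64% (S4), against 22.6%, 42.7%, 25.8% and 8.05% in Wt. The S3-led windows had clone medians of 8.02% (S1), 24.2% (S2), 41.2% (S3) and 25.9% (S4), against 7.69%, 24.5%, 41.6% and 25.3% in Wt. The fraction farthest in time from the leader, S4 for S2-led and S1 for S3-led windows, thus had a median share of under 10% in both lines.

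The transition windows formed 310 runs, 167 led by S2 and 143 led by S3. A run had a median length of 120 kb, with quartiles of 100 and 160 kb and a range from 20 to 620 kb, and this median was the same for both leaders. Only 6 runs were a single window. Runs in local peaks had a lower median (80 kb for S2 and 60 kb for S3) but a higher upper quartile (220 and 190 kb). Runs in local valleys had a higher median (160 and 220 kb). Replication became later towards higher coordinates in 154 runs and towards lower coordinates in 156.

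At most places the leading fraction changed by 1 step at a time. Of the 781 borders between neighbouring runs, 653 (83.6%) joined fractions next to each other, 15 skipped 1 fraction, and 113 joined S1 directly to S4. Of the 357 edges of S1-led runs, 239 (66.9%) passed into S2, 5 into S3 and 113 (31.7%) into S4. About 1 in 3 edges of S1-led runs therefore had no S2- or S3-led window of 20 kb beside it.

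Neighbouring runs of the same direction joined into 204 transition zones, 100 of which became later rightwards and 104 leftwards. A zone was called complete when it went from S1 through S2 and S3 to S4, and 106 zones did so. A further 58 went from S1 to S3 and 34 from S2 to S4, and 6 skipped a fraction (3 from S1 through S2 to S4, 3 from S1 through S3 to S4). Complete zones had a median length of 240 kb (quartiles 200 and 280 kb, range 80 to 760 kb). Of the 106, 61 were 200 to 300 kb long and 12 were longer than 400 kb. The median was 240 kb in both directions, whereas both kinds of shortened zone with 1 middle fraction had a median of 140 kb.

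**Figure D1:**
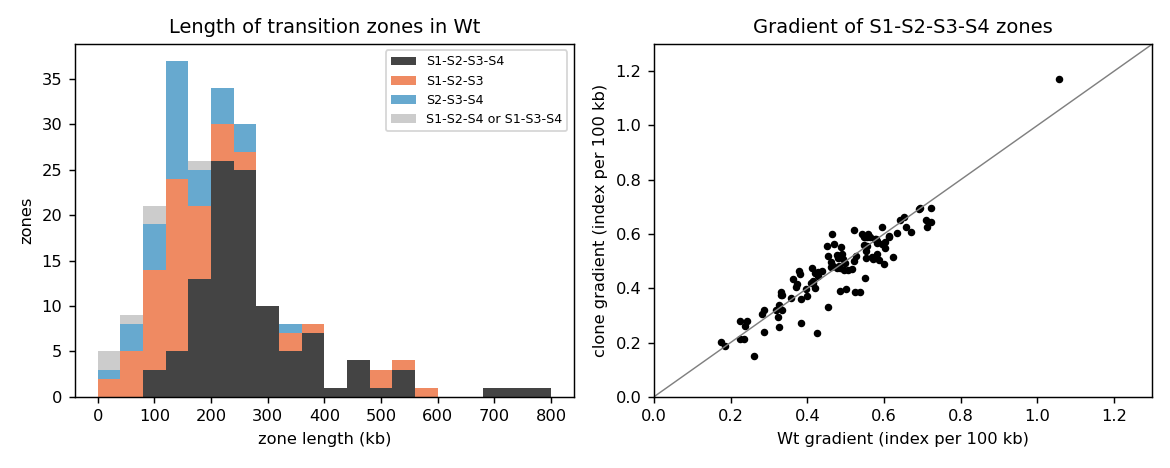
Left, lengths of the 204 transition zones of Wt in kb (bins of 40 kb, stacked by the fractions a zone passes through); right, the timing gradient of the 106 zones from S1 to S4 in Wt (x) and the clone (y), in index units per 100 kb, 1 point per zone, with the line of equality. Complete zones gather around 240 kb and their gradients lie along the line, where both gradients of a zone are taken over the same Wt distance.

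Within complete zones the S2-led part had a median of 100 kb and the S3-led part of 120 kb. The S3-led part was the longer in 53 zones, the S2-led part in 33, and both were equal in 20. The lengths of the 2 parts had a Spearman rho of 0.391 (Pearson r = 0.245, 106 zones). Zone length had a rho of 0.044 with the length of the S4-led run beside it (r = 0.0037) and of 0.450 with the length of the S1-led run (r = 0.398). These are descriptions over zones of one set of libraries, and zones that share a flanking run are not independent. The 25 complete zones beside an S4-led run of 1000 kb or more and the 81 beside a shorter one both had a median of 240 kb.

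Transition windows occurred along the whole chromosome. Their share in bins of 20 Mb ran from 13.7% in the first 20 Mb to 29.3% between 120 and 140 Mb. Of the 2162, 0 lay among the 10% of windows with the lowest summed signal, which held 21.2% of the S4-led and 4.56% of the S1-led windows. The other windows led by S2 or S3 were nearly absent there too, with 3 of 374 in local peaks and 1 of 931 in local valleys. The median summed signal of transition windows, where each scaled fraction averages 1, was 5.10 in Wt and 4.91 in the clone, against 4.14 and 4.03 over all windows. In Wt it was 4.77 in local peaks and 4.81 in local valleys.

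The same rule on chromosome 14, which has deposited profiles in Wt only, gave 187 transition windows of 750 (24.9%). They formed 22 runs with a median of 120 kb and 16 zones, of which 6 were complete, 220 to 280 kb long, with a median of 250 kb. There were 1.07 zones per Mb on chromosome 14 and 1.04 per Mb on chromosome 1. Another 10 zones of chromosome 14 went from S1 to S3, and none from S2 to S4. The last 546 positions, which held extreme values, were left out. With all positions kept there were 185 transition windows, and 8 zones went from S1 to S3 and 1 from S2 to S4. The 6 complete zones were then 180 to 340 kb long, with a median of 220 kb.

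Timing within a zone was followed with a share-based index, the mean of the fraction numbers weighted 4, 3, 2 and 1 from S1 to S4 by their shares of the summed signal, so that 4 is all S1 and 1 is all S4. Over the 106 complete zones, aligned at their centres and turned so that they ran from early to late, the mean index in Wt was 3.19 ± 0.34 (SD over zones) at 200 kb before the centre, 2.43 ± 0.18 at the centre and 1.73 ± 0.25 at 200 kb beyond it. In the clone it was 3.21 ± 0.35, 2.44 ± 0.20 and 1.74 ± 0.25 at the same places. The mean S2 share reached 40.6% in Wt at 60 kb before the centre, and 39.7% in the clone at 80 kb before it.

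**Figure D2:**
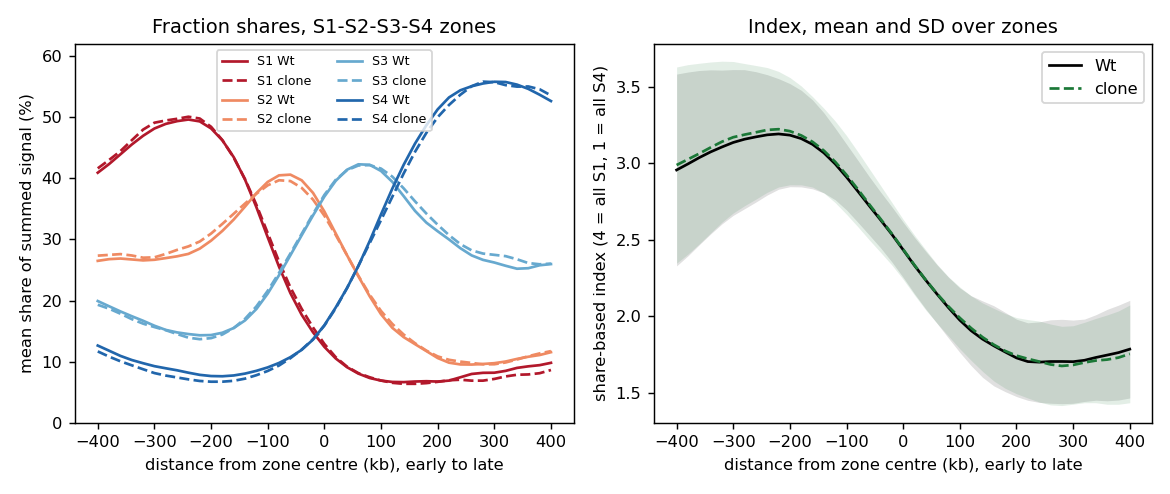
The 106 zones from S1 to S4 aligned at their centres and turned to run from early (left) to late (right), with distance from the centre in kb. Left, mean share of each fraction in the summed signal (%), Wt as solid and clone as dashed lines; right, mean share-based index with bands of 1 SD over zones, where the Wt mean is 2.43 at the centre and the 2 lines lie nearly on each other.

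Across complete zones the index fell in Wt by a median of 0.486 per 100 kb (quartiles 0.388 and 0.571, range 0.174 to 1.06). In the clone the median was 0.481 per 100 kb (quartiles 0.389 and 0.568), and 54 zones were steeper and 52 less steep than in Wt. The gradients of the 2 lines had r = 0.913 (Pearson) and rho = 0.882 (Spearman) over the 106 zones, a description, since neighbouring windows and the scaling are shared. Both gradients of a zone were also taken over the same Wt distance. The flank indexes varied little between zones (in Wt 3.10 with an SD of 0.21 early and 1.84 with an SD of 0.15 late). A high correlation was therefore largely built in, and it does not show that zones kept their individual steepness. From one window to the next along all 204 zones, the index fell at 91.7% of 2366 steps in Wt and at 91.8% in the clone. It fell at every step in 146 zones in Wt and in 149 in the clone.

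The order of timing was kept almost everywhere in the clone, which played no part in the choice of windows. The flanks compared were those of Wt, and both lines were scaled in the same way. In 203 of the 204 zones the window of the earlier flank again had a higher index than that of the later flank. The exception was a zone of 1 window, chr1:115500001-115520000, where the flanks had indexes of 2.14 and 2.15 in the clone against 2.53 and 1.93 in Wt. Applied to the clone alone, the rule found 2293 transition windows in 319 runs with a median of 120 kb, and 217 zones, of which 102 were complete with a median of 240 kb. The lines shared 1767 transition windows, which were 81.7% of those of Wt and 77.1% of those of the clone. A zone of the clone overlapped 189 of the 204 zones, in the same direction in all 189, and 91 of the 106 complete zones were again complete.

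Window by window, 1798 of the 2162 transition windows (83.2%) had the same leading fraction in the clone. In 131 (6.06%) an earlier fraction took the lead and in 233 (10.8%) a later fraction, beside 4.27% and 7.07% of all windows of the chromosome. The 2191 S1-led windows could not pass to an earlier fraction, nor the 4119 S4-led windows to a later one. Both shares over all windows thus include windows that could not change that way. In local peaks led by S2 or S3 the shares were 2.67% earlier and 26.2% later, and in local valleys 7.95% and 3.33%. A different leader was thus found in 16.8% of transition windows and in 11.3% of all windows. The split between earlier and later depended on the scaling, and when the fractions were set to equal medians in place of equal means it was 12.5% earlier and 9.74% later.

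By fraction, 81.0% of the S2-led and 85.7% of the S3-led transition windows kept their leader. Of the S2-led windows 153 passed to S3, 65 to S1 and 2 to S4. Of the S3-led windows 66 passed to S2, 78 to S4 and none to S1. Changes were therefore almost all by 1 step, which the choice of windows made likely. A change of 2 steps could go only to S4 from S2 and only to S1 from S3. These fractions had median Wt shares of 8.05% and 7.69% in the windows concerned. Over all windows, 261 of the 1110 changes were by 2 or more steps, with 7 in local peaks and 4 in local valleys. The share that kept its leader was 71.1% in local peaks, 88.7% in local valleys, 85.2% in S1-led and 95.1% in S4-led windows.

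How far the leading fraction was ahead in Wt went with how often it was kept. Transition windows in which it led the next fraction by less than 5% of the summed signal kept it in 62.4% of 558 cases, against 58.2% of 815 among the other windows of the chromosome. With a lead of 5 to 10% they kept it in 79.7% (other windows 75.4%), with 10 to 20% in 94.0% (90.8%) and with 20 to 40% in 99.4% (97.3%). At a like lead, the share of transition windows that kept their leader was thus at or slightly above that of the other windows in these libraries, a difference that could not be tested. Small leads were common in windows led by S2 or S3: the median lead was 9.74% in transition windows, 7.44% in local peaks and 11.4% in local valleys. Over all windows other than transition windows it was 26.2%. The 614 windows at the ends of runs kept their leader in 64.5% of cases, and the 1548 within runs in 90.6%. At the borders of the runs the lead was 0.013 to 28.5% (median 3.17%) in the windows just inside and 0.011 to 85.0% (median 3.50%) in those just outside.

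The index differed between the lines by 0.25 or more in 71 transition windows (3.28%), higher in the clone in 29 and lower in 42, where over all windows of the chromosome the share was 11.5%, with 3.04% higher and 8.49% lower. The mean difference over transition windows, clone minus Wt, was -0.011 with an SD over windows of 0.11, and over the other windows -0.037 with an SD of 0.19. Low values were not particular to transition windows. In local peaks led by S2 or S3 the share was 4.81% with an SD of 0.15, and in local valleys 3.87% with an SD of 0.11. Transition windows have neither extreme of the index nor the lowest signal, and the part of either in the smaller spread was not tested.

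**Figure D3:**
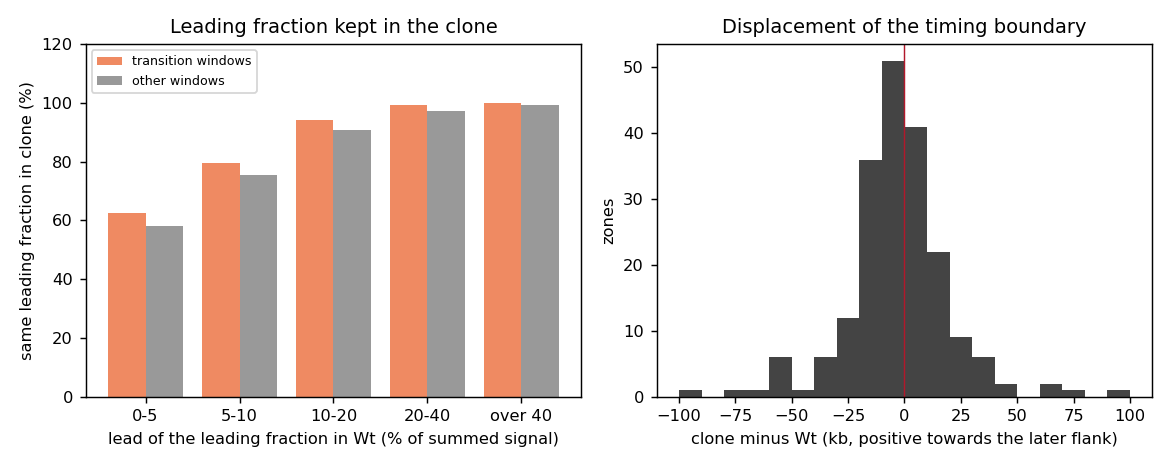
Left, percentage of windows with the same leading fraction in the clone, by how far that fraction led in Wt (% of the summed signal), for transition windows and all other windows of chromosome 1; right, displacement of the timing boundary of the zones between clone and Wt in kb (bins of 10 kb, positive towards the later flank), without the 4 zones moved by over 100 kb. Transition windows with a lead under 5% kept it in 62.4% of cases, and most boundaries lie within 20 kb of their Wt place.

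The timing boundary of a zone was placed where the index crossed the midpoint of its Wt values in the 2 flanking windows. It could be placed in both lines in 203 zones, and it lay a median of 11.0 kb apart in the 2 lines (upper quartile 21.3 kb), which is under 1 window. In 150 zones the boundary lay within 20 kb of its Wt place and in 17 it was more than 50 kb away. It lay nearer the later flank in the clone in 85 zones and nearer the earlier flank in 118. The median displacement was -2.79 kb (quartiles -12.7 and 6.49 kb, positive towards the later flank), and this direction did not hold under every scaling: with equal medians it was 6.97 kb, with the lowest value of each library as baseline 0.073 kb, and with each clone fraction given the Wt distribution 0.95 kb.

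Displacements of over 100 kb came from zones without a single crossing. In 15 zones the index crossed the midpoint more than once in a line, and all 4 zones moved by over 100 kb were among them. In the 188 zones with 1 crossing in each line the median size was 10.4 kb and the largest 92.7 kb. The zone chr1:103860001-104580000 was displaced by -444 kb and the zone chr1:123480001-124180000 by 426 kb, although 31 of the 36 windows of the first and 32 of the 35 of the second kept their leading fraction. Both had 2 crossings in Wt and 1 in the clone.

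These 2 zones were also among the longest. The zone chr1:123480001-124180000 (700 kb, later rightwards) was S2-led over 600 kb and S3-led over 100 kb, whereas chr1:103860001-104580000 (720 kb, later leftwards) was S2-led over 100 kb and S3-led over 620 kb. The longest zone, chr1:176060001-176820000 (760 kb), was S2-led over 360 kb and S3-led over 400 kb, and it had the lowest gradient of all complete zones in Wt, 0.174 per 100 kb (0.202 in the clone). Over it the mean deposited scores were -0.210 (S1), 0.860 (S2), 0.708 (S3) and -0.519 (S4) in Wt. In the clone they were -0.183, 0.671, 0.763 and -0.465 in the same order. The 2 middle fractions were high and the 2 outer ones low in both lines, and 36 of its 38 windows kept their leader. The other long zones chosen by the same rule, chr1:68700001-69240000, chr1:26260001-26740000 and chr1:53160001-53620000, were 540, 480 and 460 kb long and moved by -0.91, -11.3 and 1.43 kb.

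The shortest complete zones were chr1:10720001-10800000 (80 kb), chr1:69600001-69700000 and chr1:192820001-192920000 (100 kb each). The last of these had the steepest gradient of the complete zones in both lines, 1.06 per 100 kb in Wt and 1.17 in the clone, beside an S4-led run of 2100 kb. Its mean scores in Wt were 0.028 (S1), 0.470 (S2), 0.373 (S3) and -0.201 (S4). In the clone they were -0.248, 0.649, 0.387 and -0.409. S2 was the highest fraction in both, S4 the lowest, and all 5 windows kept their leader.

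Around the insertion, the target region held 19 transition windows among its 78 windows, all of them to the right of the positions that the labels give for the modules of the Hi-C lines (72565520 and 72536060, with a reporter at 72548589). The insertion position of the Repli-seq clone itself is not given in the sources used here. Of the 19 windows 18 kept their leader and 1 passed to an earlier one. Over these 19 windows the index averaged 2.81 in Wt and 2.93 in the clone. Over all 78 windows of the region it averaged 2.68 in Wt, against 2.38 over all windows of the chromosome, and the region included an S1-led run of 380 kb. In these profiles the region as a whole thus averaged earlier than the chromosome, where 42.1% of windows were S4-led in Wt. The labels describe the region as mid to late replicating, and its left part, up to position 72780000, was S3-led throughout in Wt. The windows that hold the positions given for the Hi-C lines lay in this part. Their indexes of 2.26, 2.24 and 2.23 were below the average of the chromosome.

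The nearer zone, chr1:72780001-72920000, faced the positions given for the Hi-C lines with its late side. It was an S2-led run of 140 kb between an S1-led run of 380 kb on its right and an S3-led run of 940 kb on its left that holds those positions. Its mean scores in Wt were -0.022 (S1), 1.08 (S2), 0.254 (S3) and -0.678 (S4). In the clone they were 0.199 (S1), 1.05 (S2), 0.042 (S3) and -0.892 (S4). S1 was higher and S3 and S4 lower in the clone, with S2 nearly the same. The mean index went from 2.77 in Wt to 2.94 in the clone, and the boundary lay 15.9 kb nearer the later flank, that is, nearer those positions. This distance is under 1 window and below the upper quartile of all zones, 21.3 kb. The index difference, in contrast, was among the higher ones: at 0.166, against an upper quartile of 0.041 over zones, it was reached by 6 of the 204 zones including this one, and by 16 in either direction. The clone was higher in all 7 windows. With the lowest value of each library as baseline, which narrows the range of the index, the difference was 0.038.

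The farther zone, chr1:73300001-73680000, was complete, 380 kb long, and became later away from the positions given for the Hi-C lines. Its mean scores in Wt were -0.141 (S1), 0.991 (S2), 0.518 (S3) and -0.327 (S4), and in the clone -0.068, 0.777, 0.504 and -0.479. Its index went from 2.58 in Wt to 2.61 in the clone, its boundary was displaced by -1.80 kb, and 16 of its 19 windows kept their leader. This mean joins 2 opposite parts: the clone was higher in 12 of the 19 windows, all on the early side, and lower in the windows beyond them. The next zones on either side, chr1:71400001-71500000 and chr1:75340001-75680000, had boundaries displaced by 13.8 and 1.40 kb. The boundaries of all 4 zones thus lay within 20 kb of their Wt places.

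**Figure D4:**
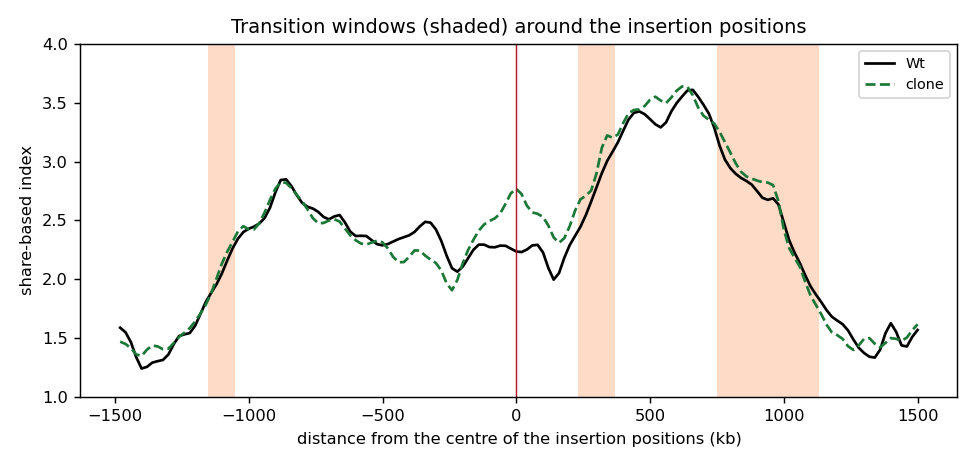
Share-based index (4 is all S1, 1 is all S4) of Wt (solid) and the clone (dashed) in 20 kb windows, against distance in kb from the midpoint of the Hi-C lines' insertion positions (vertical line); transition windows of Wt are shaded. The clone lies above Wt throughout the shaded zone just right of the vertical line, the lines run closer together through the other shaded zones, and they differ most at the vertical line, outside the shading.

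The 2 zones with the largest excess of the clone in mean index flanked a single S1-led run far from the insertion, at chr1:113900001-114060000. The zone on its left, chr1:113740001-113900000, was among those named by the rule for displacement, and the zone on its right, chr1:114060001-114220000, is named here after its values were seen. The left zone had an index of 2.41 in Wt and 2.91 in the clone and its boundary moved outwards by 76.1 kb. The right zone had an index of 2.52 in Wt and 3.05 in the clone and its boundary moved outwards by 69.3 kb. Over all 204 zones the difference in mean index had a median of -0.016, and the next highest was 0.220.

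In the left zone the mean scores in Wt were -0.301 (S1), 0.329 (S2), 0.343 (S3) and -0.106 (S4), and in the clone 0.357, 0.718, -0.056 and -0.731. In the right zone they were -0.052, 0.778, 0.724 and -0.015 in Wt, and 0.822, 1.25, -0.049 and -0.766 in the clone. In both zones S1 and S2 were higher and S3 and S4 lower in the clone. All 8 windows of the right zone and 6 of the 8 of the left had another leader. The S1-led run between them was 160 kb long in Wt and 300 kb in the clone, where it spanned chr1:113840001-114140000. Over both zones and the run, the deposited weighted average went from 0.558 in Wt to 1.20 in the clone, and the summed signal from 4.59 to 4.79. In that average S4-led windows had low values (median -0.928 in Wt), but S2-led transition windows (0.941) were not below S1-led windows (0.819). A rise in it is thus not always a shift to an earlier fraction. Of the 60 S1-led runs with a zone on both sides, this was the only one with both boundaries outwards by over 50 kb, while both were outwards in 13, inwards in 20 and opposed in 27.

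**Figure D5:**
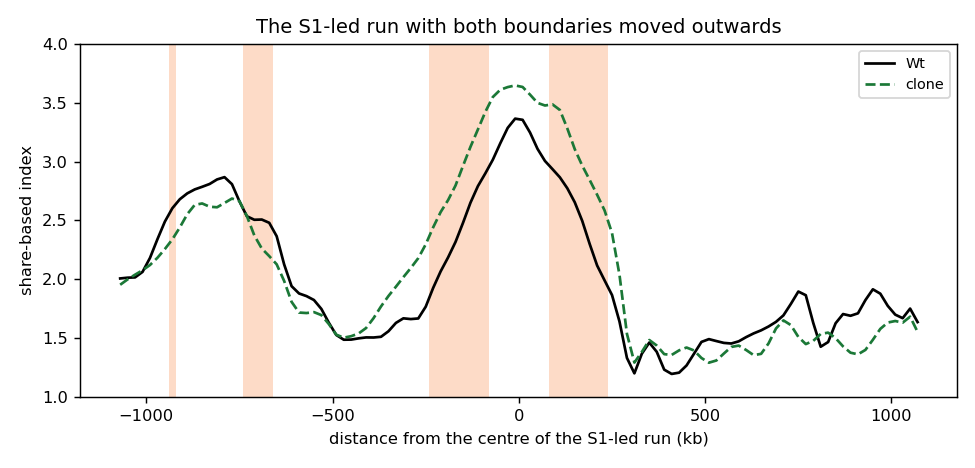
Share-based index of Wt (solid) and the clone (dashed) in 20 kb windows, against distance in kb from the centre of the S1-led run on chromosome 1 that was 160 kb long in Wt and 300 kb in the clone; transition windows of Wt are shaded. The clone lies above Wt through both zones that flank the run.

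The opposite was seen around the S1-led run at chr1:137820001-137980000, also named after its values were seen. Its left zone, chr1:137700001-137820000, had an index of 2.68 in Wt and 2.36 in the clone, with a boundary displaced by -92.7 kb, towards the run. Its right zone, chr1:137980001-138220000, had an index of 2.27 and 2.00, with a displacement of -57.5 kb. Scores in the left zone went from 0.041 (S1), 1.10 (S2), 0.573 (S3) and -0.588 (S4) in Wt to -0.312, 0.682, 1.11 and -0.00055 in the clone. The early fractions were lower and the late ones higher, and 5 of 6 windows had a later leader. The lowest difference of all zones, -0.485, was at chr1:184900001-185020000, the only zone in which the clone did not cross the Wt midpoint within 200 kb of the flanks.

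The zone chr1:156360001-156440000, named by the rule for displacement, moved by 91.2 kb towards its later flank, but its whole gradient was shallow. Its flanks had indexes of 2.38 and 2.25 in Wt and of 2.55 and 2.39 in the clone. None of its 4 windows kept its leader. A further 2 zones named by that rule, chr1:109480001-109980000 and chr1:79980001-80500000, were S2-led over 500 and 520 kb and displaced by -289 and -153 kb. Both had more than 1 crossing in a line, and 21 of 25 and all 26 of their windows kept their leader.

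A second readout, the weighted-average timing profile that the authors deposited, was higher on the early side of a zone in most cases. The S2-led transition windows had a median (SD units) of 0.941 in Wt and 0.777 in the clone, and the S3-led ones of 0.310 and 0.145. S1-led windows, which replicate earlier, had medians of 0.819 and 0.867, so that S2-led transition windows were not below them in Wt, and S4-led windows had -0.928 and -0.896. In 200 zones that lay within 1 separately scaled stretch of the profile, the early flank was higher than the late flank in 170 in Wt and in 176 in the clone. For complete zones this held in 100 of 105 and 101 of 105. It held less often for zones from S1 to S3 (39 of 56 in Wt and 44 of 56 in the clone) and for zones from S2 to S4 (27 of 34 and 28 of 34). The highest value of a complete zone and its flanks lay in an S2-led window in 56 of 105 zones in Wt (52 in the clone) and in an S1-led window in 36 (34 in the clone). The weighted average is named for the same libraries, and the summed signal of transition windows is above the chromosome's median, as given above. The part of that signal in these values was not tested.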

How the data were processed

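Repli-seq profiles of chromosome 1 in Wt DT40 cells and in 1 modified clone, and of chromosome 14 in Wt, were used. The submitters' processing notes name Bowtie2 and the build galGal5. Immunoprecipitated strands went through whole-genome amplification, per the labels' protocols. Filters, smoothing and normalization were by methods not given in the sources used here. Each deposited profile holds the authors' scores, in SD units at points 1 kb apart, normalized and centred per the file headers, with no counts behind them. The autocorrelation of changes from 1 kb to the next had dropped below 0.5 at a lag of 1 to 6 kb, depending on the library. The weighted-average profiles are deposited scores scaled within each of 16 stretches, with weights not given here, and cl6 in the headers was taken as the clone. Chromosome lengths, another kind of value, came from the deposited size list, which is named for galGal5.

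Each fraction had its 1st percentile subtracted, values below 0 set to 0 and the result divided by its mean. Windows of 20 kb needed 10 or more values, and the 21 windows of 9808 at 0 in all fractions had no leader and ended a run. Zones joined adjacent transition runs of one direction. Gradients of both lines were taken between the 2 windows flanking the Wt zone, and boundaries by linear interpolation within 200 kb of the flanks. With 1 library per fraction no test was made, and windows and zones are not replicates. The members, lists and rules were chosen with earlier results of these data known. Named zones were those in or next to the target region, the 3 longest complete zones of each direction, the 3 shortest, and the 3 most displaced each way. Others are said to be named after their values were seen. No galGal5 annotation or genome was used, so no gene is named and no sequence shown.

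The alternatives were other window sizes and starts, baselines and scalings, single-window runs left out, a lead of 10% or more, a fixed crossing level, the weighted average, and 3 added after seeing the data. A percentage under another setting was called changed when it left the exact (Clopper-Pearson) 95% interval. A median displacement or its size was called changed when it left the exact 95% interval of the median over zones. A count, a gradient, or a run or zone length was called changed when it changed by more than 1.5 times. The intervals treat windows or zones as independent, which they are not, and served only as limits. Python 3.11.15, numpy 2.4.6, pandas 2.3.3 and scipy 1.17.1 were used. The rule was tested on simulated profiles built only from full ramps between early and late stretches. It was thus not tested on shortened zones, local peaks, local valleys or gaps.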

Additional observations from a re-analysis of the deposited data

How the results depend on the processing

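Of 141 values of 15 reported results under other settings, 127 stayed within the limits given and 14 did not, and for these 14 the cause was not tested. The 127 include the gradients of the weighted average in Wt and in the clone, 0.428 and 0.438 SD units per 100 kb. Their unit is not that of the index, so they do not show whether its gradient held. The lowest value as baseline lowered the gradient to 0.121 per 100 kb in Wt and 0.119 in the clone and made the median displacement 0.073 kb. Equal medians gave the same leader in 77.7% of transition windows, an earlier one in 12.5%, a displacement of 6.97 kb and an overlap of 76.5%. Windows of 50 kb gave 84.7% with the same leader and 4.97% with an earlier one, and a lead of 10% or more gave 95.8%. The Wt order held in 100% of zones with tiling from 10 kb later, with the lowest value as baseline and with runs of 1 window left out. The Wt distribution given to the clone, added after seeing the data, gave a displacement of 0.947 kb. The median length of complete zones was 200 to 260 kb over the settings. The index difference of the zone chr1:113740001-113900000 ran from 0.113 to 0.552, and that of the zone chr1:72780001-72920000 from 0.038 to 0.217, both lowest with the lowest value as baseline. No paired analysis was possible because every group consisted of 1 library. A single library per fraction, unknown depth and unstated smoothing limit displacements of a window or less, and clone and culture cannot be told apart.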
